A study of Mus musculus with 15 samples.

Results

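Of the 25814 genes in the deposited tables, 8 were examined here by symbol: the peroxisome proliferator-activated receptors Pparg and Ppard, the retinoid X receptors Rxra and Rxrb, the retinoic acid receptor Rara, the vitamin D receptor Vdr, the glucocorticoid receptor Nr3c1 and the nuclear receptor corepressor Ncor1. Their RNA was followed in bone marrow-derived macrophages (BMDMs) of wild-type C57BL/6 adult mice, grown for 6 days in DMEM with 10% FBS, 50 µM β-mercaptoethanol and 20% medium conditioned by L929 cells. Cells were given poly(I:C) at 10 µg/ml for 6 h, a synthetic double-stranded RNA that activates TLR3, or CL075 at 4 µM for 6 h, a small molecule that activates TLR7 in mouse cells, or were left as controls, labelled ctrl. Each group had 5 libraries of polyadenylated RNA. Nothing in the labels says whether the 5 libraries came from separate animals, so p-values measure the spread between these libraries, which may be technical. Library totals were 26530525 to 32487565 reads assigned to genes with poly(I:C), 21816291 to 32042680 with CL075 and 25661175 to 31159953 in control. The question was how RNA of these receptors, and of the corepressor, responded to each agonist.

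Nuclear receptors are transcription factors switched by small lipid-soluble ligands such as fatty acids, retinoids, vitamin D and glucocorticoids. The PPARs, RARs, VDR and the liver X receptors bind DNA as heterodimers with an RXR, so the RXRs are a partner that the others have in common, whereas the glucocorticoid receptor is held by chaperones in the cytoplasm and acts on DNA after its hormone binds. NCoR1 is the scaffold of a complex with the deacetylase HDAC3 that represses targets of receptors without ligand. In macrophages these receptors are known for control of lipid handling and for restraint of inflammatory genes.

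All 8 genes had enough reads to be tested. A gene was called changed at an adjusted p under 0.05 in edgeR's quasi-likelihood test with Benjamini-Hochberg adjustment, a fold change above 1.5 and a mean TPM, the read count scaled by transcript length and library, above 0.5 on either side of the comparison. With poly(I:C), Nr3c1 was higher than in control, Rxra, Rxrb and Ppard were lower, and 4 of the 8 genes were not called. Of the 11804 genes tested, 55.9% were called with poly(I:C), 25.4% higher and 30.5% lower, so 4 of 8 is near the share of all genes. With CL075, Rxra, Rxrb and Vdr were lower than in control, none of the 8 was higher and 5 were not called. Of all genes, 39.1% were called with CL075, 17.6% higher and 21.5% lower. Between the treatments, poly(I:C) exceeded CL075 for Nr3c1 and Vdr, Rxra, Rxrb and Ppard were lower and 3 genes were not called, against 46.5% of all genes called, 22.7% higher and 23.7% lower. The median log2 fold change of the 8 genes was −0.34 for poly(I:C) against control, −0.27 for CL075 against control and −0.27 for poly(I:C) against CL075, beside −0.08, −0.02 and −0.01 over all genes tested in the same order of comparisons. Both comparisons with control used the same 5 control libraries.

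**Figure D1:**
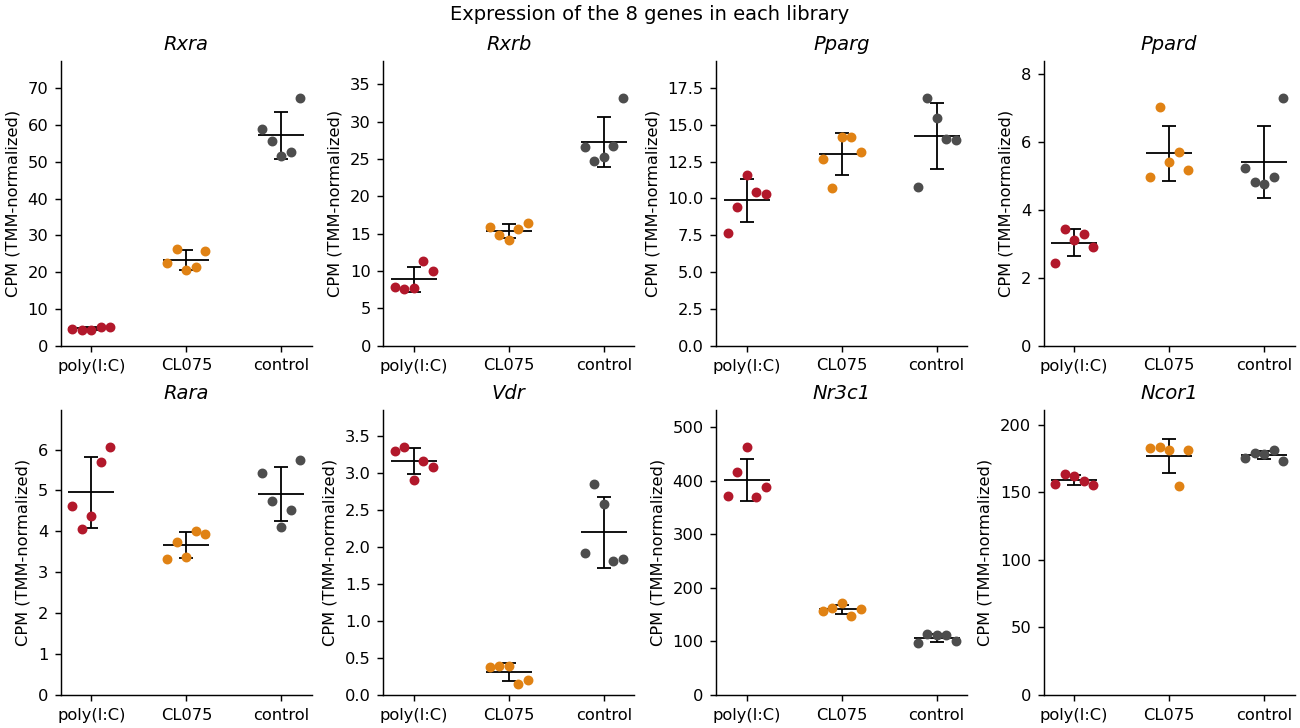
Expression of the 8 genes in each of the 15 libraries, as TMM-normalized CPM, the read count scaled by library size, on axes that start at 0. Points are libraries, the bar is the mean and the error bar the SD of 5 libraries. Rxra and Rxrb were lowest with poly(I:C) and intermediate with CL075, Nr3c1 was highest with poly(I:C), and Vdr was lowest with CL075.

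Rxra, which encodes RXR alpha, a common heterodimer partner, lies at chr2:27676440-27762957 on the plus strand in the files (GRCm38). It had 4.46, 4.44, 4.44, 5.23 and 5.06 CPM in the poly(I:C) libraries, 22.4, 26.3, 20.5, 21.5 and 25.9 CPM in the CL075 libraries and 58.9, 55.7, 51.5, 52.7 and 67.3 CPM in control libraries, on the TMM-normalized scale that corrects library totals for composition. The 3 groups did not overlap, and the poly(I:C) libraries lay below all CL075 libraries. On the log2 scale Rxra fell by 3.59 with poly(I:C) against control (SE 0.10, 12.06-fold, adjusted p = 1.2e-16 in edgeR) and by 1.29 with CL075 (SE 0.08, 2.45-fold, adjusted p = 4.6e-11). The difference between poly(I:C) and CL075 was itself called, at −2.30 (95% interval −2.51 to −2.09, adjusted p = 1.6e-13).

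Rxrb, which encodes RXR beta (chr17:34031812-34038393, plus strand), had 7.85, 7.61, 7.79, 11.3 and 10.0 CPM with poly(I:C), 15.9, 14.8, 14.1, 15.6 and 16.4 CPM with CL075 and 26.6, 24.8, 25.2, 26.7 and 33.1 CPM in control. Again no group overlapped another, with smaller steps than for Rxra. Rxrb fell by 1.61 with poly(I:C) against control (SE 0.10, 3.045-fold, adjusted p = 4.2e-11) and by 0.83 with CL075 (SE 0.10, 1.779-fold, adjusted p = 2.6e-07), and poly(I:C) was lower than CL075 by a log2 difference of −0.78 (SE 0.11, 1.712-fold, adjusted p = 2.6e-06). Groups of libraries that did not overlap were common in these data: they were found for 6 of the 8 genes against 75.9% of all genes with poly(I:C) against control, for 5 against 65.2% with CL075 against control, and for 6 against 66.2% between poly(I:C) and CL075.

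The promoter windows of both RXR genes are shown because the genes fell together. The sequences are RefSeq windows of 300 bases, 250 before and 50 after a transcription start, on GRCm38.p6, printed 5′ to 3′ on the strand of the gene. Capitals mark the GC box GGGCGG on either strand, a site bound by factors of the SP family.
Rxra, chr2:27676951-27677250, plus strand: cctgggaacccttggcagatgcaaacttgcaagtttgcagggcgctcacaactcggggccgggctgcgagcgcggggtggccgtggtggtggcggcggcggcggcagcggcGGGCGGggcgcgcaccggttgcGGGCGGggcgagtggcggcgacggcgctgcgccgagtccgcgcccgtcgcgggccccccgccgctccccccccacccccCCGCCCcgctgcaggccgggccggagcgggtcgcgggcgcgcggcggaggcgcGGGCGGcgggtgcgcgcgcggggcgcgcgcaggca
Rxrb, chr17:34031562-34031861, plus strand: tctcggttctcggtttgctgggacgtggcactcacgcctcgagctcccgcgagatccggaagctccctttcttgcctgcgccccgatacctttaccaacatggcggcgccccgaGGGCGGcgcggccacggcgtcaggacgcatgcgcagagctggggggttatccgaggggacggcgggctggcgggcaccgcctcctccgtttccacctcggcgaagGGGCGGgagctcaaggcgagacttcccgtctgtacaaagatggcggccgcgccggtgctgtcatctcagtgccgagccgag
The Rxra window was 83% G and C with 4 GC boxes and the Rxrb window was 68.7% G and C with 2. Of 32851 mouse promoter windows in the same table, 35.7% held at least 1 GC box. Neither window held the interferon response core, GAAA and GAAA with any 2 bases between, which 3.44% of all windows held, nor the STAT motif, TTC and GAA with any 3 bases between, held by 8.30%. The loose NF-kB core, GGG and CC with any 5 bases between, present in 50.8% of all windows, was found 4 times in the Rxrb window shown and not in the Rxra window shown. Each RXR gene has a second start in the table, whose window held 2 such matches for Rxra and 1 for Rxrb, so the count depends on the start chosen. The windows at the lower coordinate are those printed. Each motif was searched on both strands. A match is a description of letters.

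RXR RNA as a whole was compared within libraries as TPM, which divides reads by transcript length and so allows levels of different genes to be set side by side. The third family member Rxrg had 0 counts in all 15 libraries. Summed TPM of Rxra and Rxrb was 7.15 ± 1.28 with poly(I:C), 24.9 ± 2.38 with CL075 and 66.0 ± 8.35 in control (SD, n = 5 each). Rxra made up 24.02, 24.5, 24.1, 20.5 and 21.9% of this sum in the poly(I:C) libraries, 44.0, 49.8, 44.8, 43.4 and 46.8% in the CL075 libraries and 55.3, 55.6, 53.2, 52.3 and 53.1% in control libraries. Rxra was thus above Rxrb in every control library and below it in every treated library. A share within a library does not depend on how libraries are scaled against each other. The summed TPM does depend on it and carries no TMM correction, so changes between groups are those given above in CPM.

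**Figure D2:**
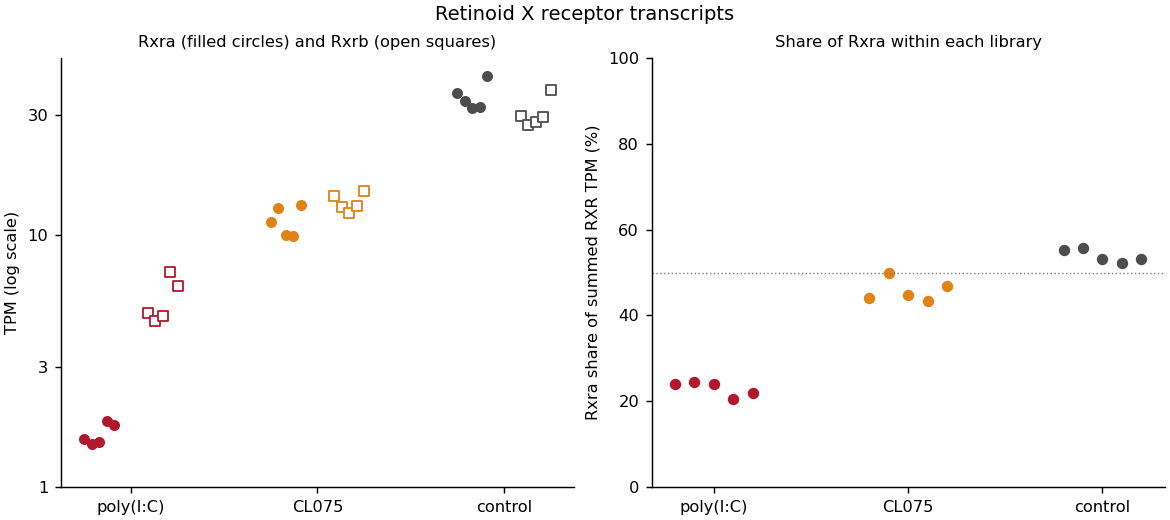
Left, deposited TPM of Rxra (filled circles) and Rxrb (open squares) in each library, without TMM correction, on a log axis. Right, the share of Rxra in the summed TPM of both genes, in percent. The share lay between 20.5 and 24.5% with poly(I:C), 43.4 and 49.8% with CL075 and 52.3 and 55.6% in control.

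Ppard, the PPAR found in most tissues and a sensor of fatty acids (chr17:28232754-28301469, plus strand), lay at 2.43, 3.45, 3.12, 3.30 and 2.90 CPM with poly(I:C), at 4.98, 7.05, 5.42, 5.72 and 5.17 CPM with CL075 and at 5.25, 4.83, 4.77, 4.97 and 7.29 CPM in control. The poly(I:C) libraries lay below all others, and the CL075 and control libraries overlapped. Ppard fell by 0.84 with poly(I:C) against control (SE 0.14, adjusted p = 2.2e-05). With CL075 the log2 difference from control was 0.06 (95% interval −0.20 to 0.32, adjusted p = 0.67), and poly(I:C) was lower than CL075 at −0.90 (95% interval −1.20 to −0.60, adjusted p = 1.4e-05).

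Pparg, the PPAR that drives fat storage and the lipid program of alveolar macrophages (chr6:115360951-115490399, plus strand), ranged from 7.65 to 11.6 CPM with poly(I:C) (median 10.3), from 10.7 to 14.2 CPM with CL075 (median 13.2) and from 10.8 to 16.8 CPM in control (median 14). All 3 groups overlapped. The log2 difference from control was −0.53 with poly(I:C) (SE 0.12, adjusted p = 4.5e-04), a 1.44-fold change that missed the fold threshold of 1.5, and −0.13 with CL075 (95% interval −0.37 to 0.10, adjusted p = 0.29). Pparg was called lower with poly(I:C) when poly(I:C) replicate 3 was left out (−0.60) or control replicate 1 was left out (−0.61), and on the scales of upper quartiles (−0.85), Hprt (−1.07) and library totals (−1.46). The direct difference between poly(I:C) and CL075 was −0.39 (adjusted p = 0.0061) and was not called, but was called lower by Hprt (−0.66) and totals (−0.98). Relative to its RXR partners in the same library, Pparg TPM was 0.978 ± 0.190 of the RXR sum with poly(I:C), 0.520 ± 0.0848 with CL075 and 0.275 ± 0.0595 in control (SD, n = 5 each). The RXR sum in the denominator averaged 7.15, 24.9 and 66.0 TPM in that order. Rara TPM over the same sum was 0.2895, 0.0874 and 0.0559 in that order, so the rise was not particular to Pparg.

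Genes known as PPAR targets were counted from a list of 19, of which 15 had enough reads. Poly(I:C) raised 4 and lowered 2 against control, with a list median of 0.21 against −0.08 over all genes. With CL075, 1 was higher and 3 were lower, with a median of −0.07 against −0.02. Among all genes tested, poly(I:C) raised 25.4% and lowered 30.5%, while CL075 raised 17.6% and lowered 21.5%. Counts against control from the other gene lists below can be read beside these shares. Angptl4, an inhibitor of lipoprotein lipase, fell to 0.0776 ± 0.0659 CPM with poly(I:C) and 0.165 ± 0.0605 CPM with CL075, against 4.76 ± 0.287 CPM in control (SD, n = 5 each), a log2 fold change of −5.83 and −4.82 for the treatments in that order. Fabp4, a fatty acid carrier of macrophages and fat cells, rose by a log2 difference of 1.37 with poly(I:C) (SE 0.13), with 0.10 for CL075, not called. Plin2, which coats lipid droplets, rose by 0.82 with poly(I:C) (SE 0.07) and had 0.22 with CL075, not called. On the scale of library totals the Plin2 value turned to −0.11. Cd36, a scavenger receptor for oxidized lipids, had −0.02 with poly(I:C), not called, and rose by 0.61 with CL075 (SE 0.14). That call was lost by upper quartiles (0.45), Hprt (0.32) and totals (0.26) and without CL075 replicate 1 (0.56) or 2 (0.53) or control replicate 3 (0.58) or 5 (0.54). Lpl, lipoprotein lipase, was called with neither treatment (0.47 with poly(I:C) and 0.25 with CL075).

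Rara, the retinoic acid receptor alpha (chr11:98927818-98974942, plus strand), ranged from 4.05 to 6.05 CPM with poly(I:C) (median 4.61), from 3.32 to 4.00 CPM with CL075 (median 3.74) and from 4.12 to 5.74 CPM in control (median 4.75). Every CL075 library lay below every library of the other groups, by a margin of 4.00 CPM for the highest CL075 library against 4.05 CPM for the lowest poly(I:C) library. The log2 difference from control was 0.02 with poly(I:C) (95% interval −0.23 to 0.27, adjusted p = 0.86) and −0.42 with CL075 (95% interval −0.66 to −0.17, adjusted p = 0.0036), below the fold threshold. Between poly(I:C) and CL075 it was 0.44 (adjusted p = 0.0036), also not called. By TMM Rara was called in none of the comparisons. It was called lower with CL075 by Hprt (−0.71) and totals (−0.77), and lower with poly(I:C) by totals (−0.91).

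Genes that supply or answer to retinoids were read in 6 of the 18 listed. Poly(I:C) raised 3 and lowered 1 (list median 0.59, all genes −0.08), and with CL075, 3 were lower and none was higher (list median −0.59, all genes −0.02). Dhrs9, a dehydrogenase that oxidizes retinol in the path to retinoic acid, reached 50.5 ± 4.72 CPM with poly(I:C) and 4.64 ± 0.660 CPM with CL075, against 8.58 ± 1.72 CPM in control (SD, n = 5 each). It rose by 2.56 with poly(I:C) (SE 0.11, adjusted p = 6.1e-14) and fell by 0.89 with CL075 (SE 0.12, adjusted p = 3.2e-06). Dhrs3, which reduces retinal back to retinol, fell with both, at −2.38 for poly(I:C) and −1.13 for CL075. Rdh11, a retinal reductase, was called with neither (−0.54 and 0.12 in that order). Tgm2, transglutaminase 2 and a retinoic acid target, rose by 0.83 with poly(I:C) and had −0.01 with CL075, not called. On library totals Tgm2 turned to −0.10 with poly(I:C), and 21.8% of its exon bases overlap a gene on the other strand.

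Vdr, the receptor for active vitamin D (chr15:97854425-97910630, minus strand), was the least abundant of the 8 genes by TPM in each group. Its counts were 65, 61, 53, 67 and 71 reads in the poly(I:C) libraries, 9, 12, 12, 4 and 7 reads in the CL075 libraries and 67, 107, 95, 63 and 79 reads in control libraries. In CPM these were 3.29, 3.34, 2.91, 3.15 and 3.07 with poly(I:C), 0.383, 0.397, 0.396, 0.147 and 0.200 with CL075 and 1.92, 2.84, 2.57, 1.80 and 1.83 in control. Every CL075 library lay far below the others, and the poly(I:C) libraries lay just above control. Vdr fell by 2.85 with CL075 against control (SE 0.22, 95% interval −3.31 to −2.38, 7.189-fold, adjusted p = 1.2e-09). With poly(I:C) the log2 difference from control was 0.52 (SE 0.16, 1.436-fold, adjusted p = 0.006), below the fold threshold. It was called higher with DESeq2 or its size factors (0.59) and without control replicate 2 (0.63), and turned to −0.02 by Hprt and −0.41 by totals, not called. Poly(I:C) was higher than CL075 at 3.37 (SE 0.22, 95% interval 2.90 to 3.83, 10.33-fold, adjusted p = 6.7e-11). Few reads stood behind the CL075 values, and the TPM of Vdr there, 0.149 ± 0.0599 (SD, n = 5), lay below the floor of 0.5, which control at 1.36 ± 0.287 passed.

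The promoter window of Vdr is shown because Vdr was the gene of the 8 that differed most between poly(I:C) and CL075. It is drawn from the same RefSeq table on GRCm38.p6, with GC boxes in capitals.
Vdr, chr15:97908247-97908546, minus strand: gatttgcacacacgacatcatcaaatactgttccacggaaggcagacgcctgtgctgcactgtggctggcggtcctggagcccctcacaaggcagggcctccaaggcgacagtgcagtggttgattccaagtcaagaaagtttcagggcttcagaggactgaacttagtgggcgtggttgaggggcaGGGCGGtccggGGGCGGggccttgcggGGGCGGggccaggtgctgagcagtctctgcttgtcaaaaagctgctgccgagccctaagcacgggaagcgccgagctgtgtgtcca
It was 61.3% G and C and held 3 GC boxes and 3 matches to the NF-kB core, of which 2 begin at the same base as a GC box. It held neither the interferon response core nor the STAT motif. The interferon response core, held by 3.44% of all windows, was found in 0 of the 15 windows read for 7 of the 8 genes. Some of these windows overlap, and no window of Nr3c1 was searched.

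Vitamin D genes were sparse in these cells, with 3 of 8 listed genes read well enough to test. Cyp24a1, the enzyme that degrades active vitamin D and its best-known target, had 0 counts in all 15 libraries, and Cyp27b1, the enzyme that makes it, had 2 counts over all of them. Cyp27a1, a sterol hydroxylase that also hydroxylates vitamin D, fell to 6.45 ± 0.719 CPM with CL075, against 42.0 ± 6.36 CPM in control (SD, n = 5 each), a log2 fold change of −2.70 (SE 0.11, adjusted p = 1.6e-13). With poly(I:C) it had 53.3 ± 5.88 CPM and a log2 difference of 0.34, not called. Thbd, thrombomodulin, which active vitamin D induces in monocytes, fell by 2.82 with poly(I:C) (SE 0.11, adjusted p = 2.0e-14) and had −0.22 with CL075, not called. Cyp2r1, a vitamin D hydroxylase, had 0.12 with poly(I:C) and 0.00 with CL075, not called. Of the 3 tested, 0 were higher and 1 lower in each comparison with control, with list medians of 0.12 for poly(I:C) and −0.22 for CL075.

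Nr3c1, the glucocorticoid receptor gene on chromosome 18, lay at 371, 416, 463, 370.0 and 388 CPM with poly(I:C), at 158, 162, 172, 148 and 161 CPM with CL075 and at 97.5, 113, 112, 113 and 100.2 CPM in control. The groups did not overlap, and the order was the reverse of that of the RXRs. Nr3c1 rose by 1.91 with poly(I:C) against control (SE 0.07, 95% interval 1.77 to 2.05, 3.753-fold, adjusted p = 4.2e-15). With CL075 the log2 difference was 0.58 (SE 0.07, 95% interval 0.44 to 0.72, adjusted p = 2.2e-07), a 1.495-fold change that fell just short of the threshold of 1.5. It was called with DESeq2 or its size factors (0.62) and in 9 of 15 fits that left out 1 library. Those were the fits without any of poly(I:C) replicates 1 to 4 (0.59), CL075 replicate 1 (0.59) or 4 (0.62), or control replicate 2, 3 or 4 (0.60). The change was larger with poly(I:C) than with CL075 by 1.33 (95% interval 1.19 to 1.47, 2.51-fold, adjusted p = 1.0e-12).

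Genes known to be induced by glucocorticoids moved in both directions. Of 14 tested, poly(I:C) left 5 higher and 6 lower, with a list median of 0.12 against −0.08 over all genes, and CL075 left 6 higher and 5 lower, with a median of 0.30 against −0.02. Tsc22d3, which encodes the glucocorticoid-induced leucine zipper GILZ, fell to 6.07 ± 0.503 CPM with poly(I:C) and 10.5 ± 0.731 CPM with CL075, against 83.9 ± 4.04 CPM in control (SD, n = 5 each). It changed by −3.79 with poly(I:C) on the log2 scale (SE 0.07, adjusted p = 4.4e-19) and −3.00 with CL075 (SE 0.06, adjusted p = 1.1e-17). Dusp1, a phosphatase of MAP kinases, rose by 2.36 with poly(I:C) and 2.10 with CL075, and Anxa1, annexin A1, rose by 1.81 and 0.93 for the same treatments in that order. Sgk1, a kinase controlled by glucocorticoids and serum, rose by 1.02 with poly(I:C) and fell by 1.13 with CL075. Ddit4, an inhibitor of mTOR signaling, fell by 2.31 with poly(I:C) and had −0.06 with CL075, not called.

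Ncor1, on chr11:62316426-62458541 (minus strand), ranged from 156 to 164 CPM with poly(I:C) (median 158), from 154 to 183 CPM with CL075 (median 181) and from 173 to 181 CPM in control (median 178). The poly(I:C) libraries lay just below control without overlap, and 4 of the 5 CL075 libraries lay at 181 to 183 CPM. The log2 difference from control was −0.16 with poly(I:C) (95% interval −0.25 to −0.06, adjusted p = 0.0043) and −0.01 with CL075 (95% interval −0.10 to 0.09, adjusted p = 0.91). Between poly(I:C) and CL075 it was −0.15 (adjusted p = 0.0064), and Ncor1 was called in none of the comparisons by TMM. It was called lower with poly(I:C) against control by Hprt (−0.71) and totals (−1.09), and against CL075 by totals (−0.74). The overlap of its exons with Pigl and Ttc19 on the other strand covered 0.65% of exon bases, and the other 7 genes had none.

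Other members of the Ncor1 complex were called in both directions. Of 5 genes read from this list, 2 rose and 1 fell with poly(I:C) (list median −0.00, all genes −0.08), and 1 was higher and 1 lower with CL075 (list median −0.11, all genes −0.02). Coro2a, a component that links NCoR to actin, rose by 2.36 with poly(I:C) (SE 0.06) and 1.17 with CL075 (SE 0.06). Hdac3, the deacetylase of the complex, was called with neither treatment. The related adaptors moved apart, with Tbl1x higher by 1.14 with poly(I:C) and Tbl1xr1 lower by a log2 fold change of −0.73. With CL075, Tbl1x had −0.11, not called, and Tbl1xr1 fell by 0.66.

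Coactivators of nuclear receptors were counted from a list of 12, of which 11 were tested. Poly(I:C) raised 6 and lowered 2, with a list median of 0.59 against −0.08 over all genes. With CL075 none was higher and 3 were lower, with a median of 0.00 against −0.02. For comparison, poly(I:C) raised 25.4% of all genes and lowered 30.5%, while CL075 raised 17.6% and lowered 21.5%. Ncoa7, which binds several nuclear receptors, rose by 2.28 with poly(I:C) (SE 0.06) and had 0.22 with CL075, not called. Ncoa1, the steroid receptor coactivator SRC-1, rose by 0.79 with poly(I:C) (SE 0.05) and fell by 0.99 with CL075 (SE 0.05). Ep300, a histone acetyltransferase, rose by 0.75 with poly(I:C) and had 0.00 with CL075, not called. Ppargc1b, a coactivator of mitochondrial and lipid genes, rose to 1.91 ± 0.336 CPM with poly(I:C) and had 0.458 ± 0.134 CPM with CL075, not called, against 0.625 ± 0.158 CPM in control (SD, n = 5 each). On library totals the poly(I:C) values turned to −0.14 for Ncoa1 and −0.19 for Ep300. Ncoa3 had 0.41 with poly(I:C), not called, and fell by 0.94 with CL075, and Ncoa4, also a receptor for ferritin turnover, fell by 0.98 with poly(I:C) and 0.79 with CL075.

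**Figure D3:**
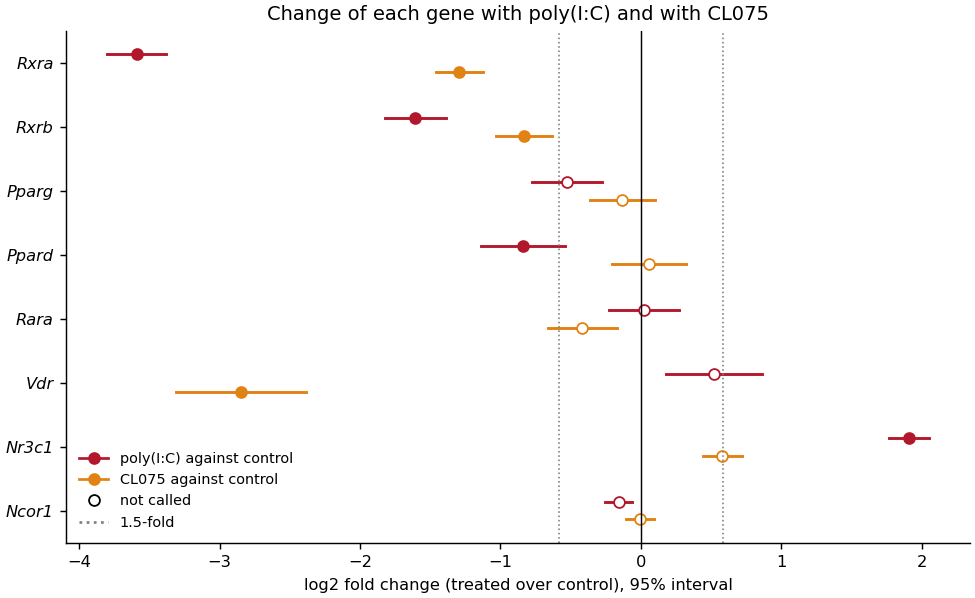
Log2 fold change of each of the 8 genes against control from edgeR, for poly(I:C) and for CL075. The 95% interval was calculated from the F statistic of its test. Filled points were called, open points were not, and dotted lines mark a fold of 1.5. Rxra at −3.59 and Nr3c1 at 1.91 were the extremes with poly(I:C), and Vdr at −2.85 was the lowest with CL075.

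Per transcript length, the order of the 8 genes changed with treatment. TPM carries no TMM correction, so these levels compare genes within a group and not a gene between groups. On the TMM scale, poly(I:C) differed from control by −0.16 for Ncor1 and 0.52 for Vdr in log2, neither called. Nr3c1 rose by 1.91 on that scale. After poly(I:C), Nr3c1 averaged 96.3 ± 8.08 TPM and Ncor1 24.1 ± 0.267 TPM, followed by Pparg (6.88), Rxrb (5.52), Rara (2.07), Ppard (1.66), Rxra (1.63) and Vdr (1.08). The library ranges of Pparg and Rxrb, of Rara and Ppard, and of Ppard and Rxra overlapped there. With CL075 the mean TPM was 54.6 ± 4.11 for Nr3c1 and 38.1 ± 3.76 for Ncor1, then 13.5 for Rxrb, 12.8 for Pparg, 11.4 for Rxra, 4.38 for Ppard, 2.17 for Rara and 0.149 for Vdr. Rxrb and Pparg overlapped, as did Pparg and Rxra. In control, Ncor1 at 48.4 ± 0.308 TPM and Nr3c1 at 46.3 ± 2.75 TPM were followed by Rxra (35.6), Rxrb (30.5), Pparg (17.8), Ppard (5.34), Rara (3.69) and Vdr (1.36), with each of the first 4 overlapping the next up to Rxrb (SD, n = 5 throughout). With poly(I:C) the mean of Rxra lay next to that of Ppard, which was above it in 2 of 5 libraries, whereas in control Rxra lay next after Nr3c1. The ratio of Nr3c1 to Ncor1 TPM within a library was 4.00 ± 0.327 with poly(I:C), 1.44 ± 0.0677 with CL075 and 0.956 ± 0.0526 in control (SD, n = 5 each).

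Other nuclear receptor genes, 42 in all, gave 18 with enough reads. Poly(I:C) raised 5 and lowered 8 (list median −0.30, all genes −0.08), and with CL075, 2 were higher and 7 lower (list median −0.57, all genes −0.02). In the direct comparison, 5 were above and 9 below CL075 in the poly(I:C) libraries (list median −0.34, all genes −0.01). Of all genes, 22.7% were called higher and 23.7% lower there. Nr1h3, the liver X receptor alpha and an RXR partner, averaged 21.7 ± 4.65 CPM with poly(I:C) and 55.7 ± 9.27 CPM with CL075, against 14.3 ± 0.770 CPM in control (SD, n = 5 each). It rose by 0.61 with poly(I:C) (SE 0.13, adjusted p = 3.2e-04), turning to −0.32 on library totals, and by 1.96 with CL075 (SE 0.13, adjusted p = 9.8e-11). The poly(I:C) call of Nr1h3 was lost by upper quartiles (0.29) and Hprt (0.07) and without poly(I:C) replicate 4 (0.54) or 5 (0.53) or control replicate 2 (0.58). Nr2c2, the testicular receptor TR4, fell by 2.00 with poly(I:C) and 0.61 with CL075, the last not called with DESeq2 (−0.56) or without CL075 replicate 4 (−0.54), though 31.2% of its exon bases overlap a gene on the other strand. Nr1d2, the heme receptor REV-ERB beta, rose by 0.91 with poly(I:C), turning to −0.03 on library totals, and had −0.53 with CL075, not called. Nr4a2, an orphan receptor of the immediate-early kind, fell by 2.29 with CL075 and had −0.54 with poly(I:C), not called. Nr1h5, the farnesoid X receptor beta, had 93 reads over the poly(I:C) libraries, 0 over the CL075 libraries and 1 over the control libraries.

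**Figure D4:**
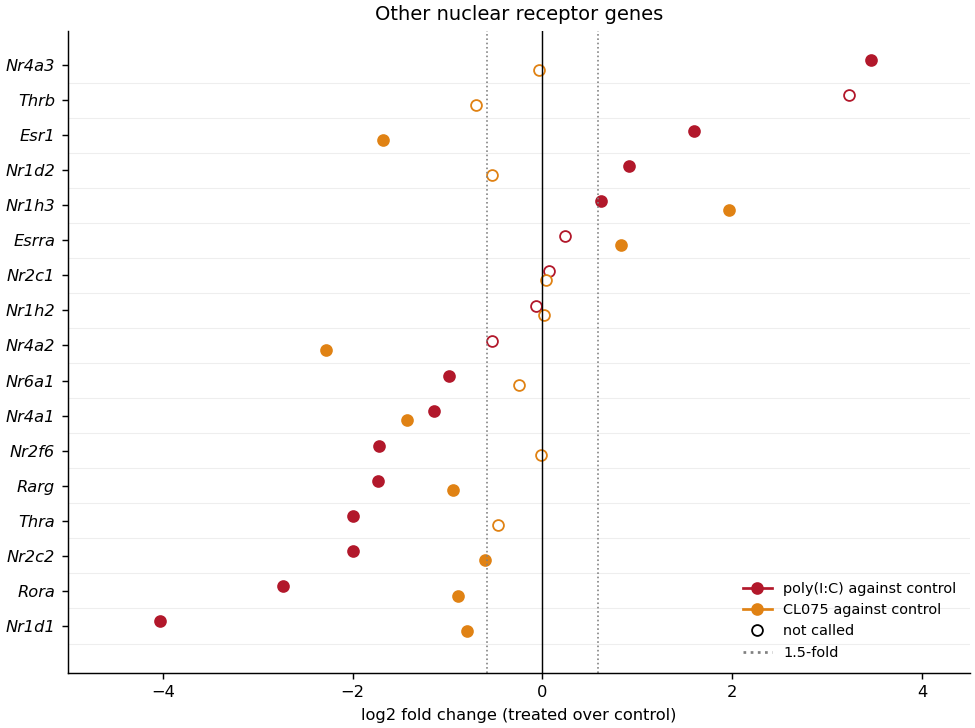
Log2 fold change against control for 17 of the 18 other nuclear receptor genes tested, those with at least 10 reads in every group, for poly(I:C) and for CL075. Filled points were called and open points were not. Nr1h3 was the highest with CL075 at 1.96 and Nr4a2 the lowest at −2.29.

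Across the 15 libraries, Rxra and Rxrb had a Pearson's r of 0.97 in log2 CPM, and Rxra and Nr3c1 one of −0.99. These values come from 3 groups of 5, so they mostly restate the group means and carry no test. By the same measure the genes nearest to Rxra were Crat and Agfg2 (r = 0.997 each), to Nr3c1 Mtmr6 (0.998) and Zcchc2 (0.997), to Rxrb Hagh (0.992) and Rgl2 (0.991), and to Vdr Crybg3 (0.981) and Card6 (0.976). The nearest genes were less alike for Rara (Ddrgk1, 0.940, and Tecr, 0.928), Ncor1 (Prr14l, 0.942, and Sos2, 0.939), Ppard (Uck2, 0.937, and Rhobtb1, 0.936) and Pparg (Clk2, 0.848, and Terf2, 0.847).

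How libraries were scaled mattered for the genes with small changes. TMM factors ran from 0.683 to 0.721 with poly(I:C), 1.03 to 1.09 with CL075 and 1.33 to 1.38 in control. On library totals without TMM, the median of all genes tested moved to −1.02 with poly(I:C) against control, −0.37 with CL075 against control and −0.60 between poly(I:C) and CL075. With Hprt as the scale it moved to −0.63, −0.31 and −0.27 for the same comparisons in that order, and by upper quartiles to −0.41, −0.18 and −0.18. Hprt, the internal control of the study's RT-PCR, was itself at 129 ± 10.9 CPM with poly(I:C) and 107 ± 4.94 CPM with CL075, against 88.0 ± 5.89 CPM in control (SD, n = 5 each). Of all calls, 45.5% were higher with poly(I:C) against control by TMM and 32.3, 25.5 and 16.8% by upper quartiles, Hprt and totals in that order. With CL075 against control these shares were 45.1% by TMM and 33.5, 25.6 and 22.4%, and between poly(I:C) and CL075 they were 48.9% by TMM, 35.0% by Hprt and 22.4% by totals. On each of the 5 scales Rxra and Rxrb were called lower with both treatments, Ppard lower and Nr3c1 higher with poly(I:C), and Vdr lower with CL075. Relative to the median of all genes, Nr3c1 lay at 1.98 to 1.99 with poly(I:C) and at 0.60 with CL075 on all 5 scales, Rxra at −3.51 and −1.27, and Vdr at 0.60 to 0.61 and −2.82, for the treatments in that order. A change of scale shifts all genes by nearly the same amount, so this agreement follows from the arithmetic and tests nothing. RNA per cell was not measured, so which scale reflects copies per cell was not tested.

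**Figure D5:**
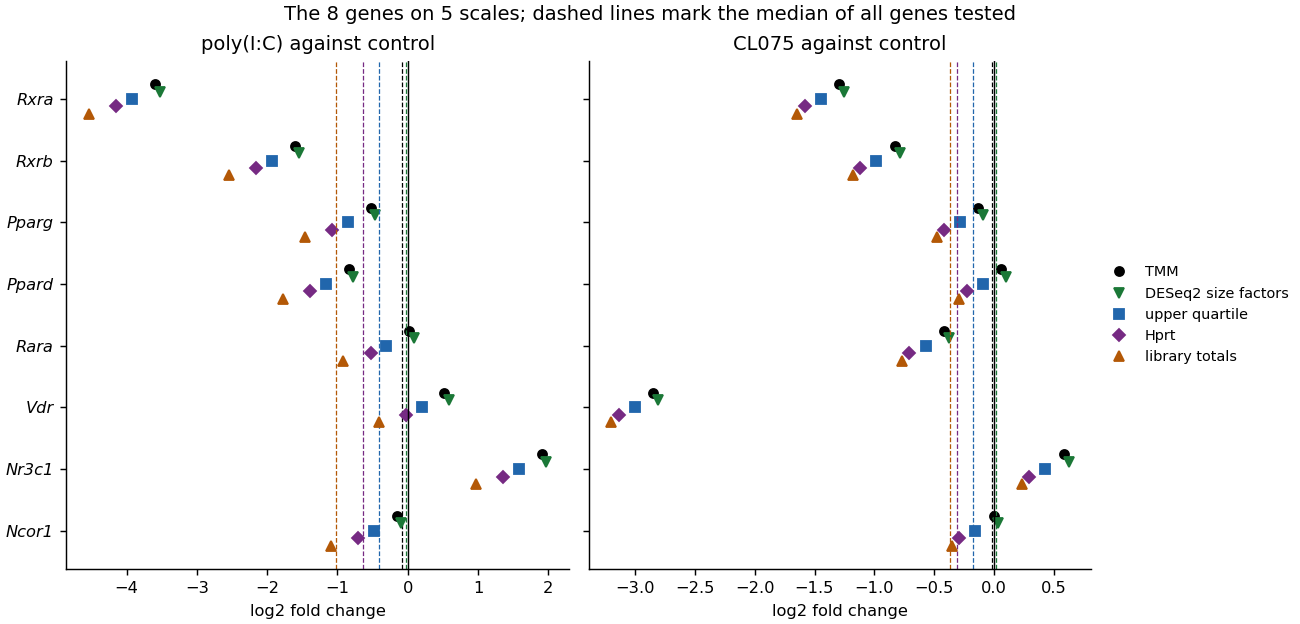
Log2 fold change of the 8 genes against control on 5 ways of scaling libraries, for poly(I:C) (left) and CL075 (right). Dashed lines mark the median of all genes tested on each scale. On totals the median with poly(I:C) was −1.02, and each gene moved with it.

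Macrophage marker RNA was abundant. The summed CPM of 7 macrophage markers was 33730 to 35650 with poly(I:C), 31090 to 35450 with CL075 and 30580 to 33520 in control. Lyz2 made up most of these sums, with means of 25110, 23870 and 25060 CPM in that order. The sums therefore say little about the rest. Fcgr1 averaged 2576, 963.6 and 404.9 CPM and Mertk 231.8, 24.67 and 103.2 CPM for the same groups. The listed marker Itgam was not analysed here. Markers of other cells were low in sum: 8 neutrophil markers had 42.3 to 191.6 CPM with poly(I:C), 111.1 to 229.7 CPM with CL075 and 21.8 to 97.2 CPM in control, and 8 dendritic cell markers had 24.8 to 33.6, 10.6 to 19.7 and 6.96 to 16.1 CPM for the same groups in that order. The 8 T and NK cell markers had 72.6 to 86.1 CPM with poly(I:C), 37.6 to 48.1 CPM with CL075 and 46.8 to 57.3 CPM in control. Cd4 made up most of these sums, with means of 68.6, 41.7 and 50.4 CPM in that order. Lck averaged 11.9 CPM with poly(I:C) and 0.154 CPM in control, and Trac had 0 counts in all libraries. The 6 B cell markers had 3.45 to 4.52, 2.83 to 3.85 and 11.6 to 13.5 CPM. Cd79b made up most of these, with means of 2.80, 2.59 and 11.5 CPM, and Ighm had 0 counts. The 8 fibroblast and stroma markers summed to no more than 4.25 CPM in any library. In the test, 3 of 5 dendritic cell markers, 2 of 6 neutrophil markers, 1 of 3 T and NK cell markers and 1 of 2 stroma markers were higher with poly(I:C), and 1 of 2 B cell markers was lower. With CL075, 1 of 5 dendritic cell markers, 1 of 6 neutrophil markers (S100a8, at 2.71) and 1 of 2 stroma markers were higher and 1 of 2 B cell markers was lower. Of the 7 macrophage markers, 4 were higher with poly(I:C), and 3 were higher with CL075 and Mertk, a receptor for dying cells, was lower (−2.06). The part of these cells in the results for the 8 genes was not tested. In bulk RNA, fewer cells of a type and less RNA per cell cannot be told apart.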

How the data were processed

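The RNA of 15 BMDM libraries, 5 each with poly(I:C), CL075 or no treatment, was read from one end after preparation with a stranded mRNA kit. In CLC Genomics Workbench the authors trimmed reads, mapped them to GRCm38 and assigned them to Ensembl genes. The sources used here do not give the strand setting for counting. Each deposited table gives the count of reads per gene, not normalized, which was used for every test. They also give TPM, which the authors scaled in CLC, used here for levels between genes and for the floor of 0.5. The submitters' processing notes also name HISAT2, featureCounts and edgeR. The 20 RPKM columns, the authors' columns of p-values and fold changes, and their lists of called genes were not used. Control counts and TPM were the same in both tables, and 0 pairs of libraries held identical counts.

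Counts of all 15 libraries were fitted together in edgeR 4.0.16 (R 4.3.3) with filterByExpr, TMM and the quasi-likelihood test, adjusted by Benjamini-Hochberg over 11804 genes. DESeq2 1.42.0 was an alternative, as were other scalings, filters, sample sets, a replicate block and leaving out each library. Log2 CPM used a prior count of 2. The 8 genes and the gene lists were chosen with earlier results of these data known. Beside the 8 genes, the text names from each list the 3 genes with the highest CPM and the called gene with the largest change in each comparison, Hprt, and the 2 genes nearest in pattern to each of the 8 among those with a mean of at least 10 CPM. Genes at 0 or few counts, members of a complex discussed by role and cell type markers were named after their values were seen. One result is not reported here. Promoter sequences came from RefSeq on GRCm38.p6, with 15 windows read for 7 genes and none for Nr3c1.

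Replicate numbers 1 to 5 are given in the labels for every group, but no source says that a number marks an animal or a day. Deviations from the group means of same-numbered libraries had a correlation of −0.004 to 0.305 for poly(I:C) and control, with 4 of 5 pairs over 0.1, of 0.105 to 0.324 for CL075 and control, with 5 of 5, and of 0.118 to 0.286 for poly(I:C) and CL075, with 5 of 5. Same-numbered libraries thus deviated together in every pair of the comparisons with CL075. For poly(I:C) and control 1 pair was not over 0.1, with a median of 0.268 over same numbers and −0.0395 over different numbers. The library names carry the same number, after the letters WT, in every group. What the number stands for is not given, so reading it as a pair rests on these names and correlations. The fit without the block is reported.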

Additional observations from a re-analysis of the deposited data

Results flagged for a closer look

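In 3 of 24 sets of 5 libraries (8 genes in 3 groups), 1 library stood apart by Dixon's ratio above the critical value of 0.71, which chance alone passes in about 5% of sets. Control replicate 5 had 7.29 CPM of Ppard, against 5.25 CPM in the nearest control library (ratio 0.81), and 33.1 CPM of Rxrb, against 26.7 CPM (ratio 0.767). The same library was also the highest control for Rxra (67.3 CPM) and Rara (5.74 CPM). Without control replicate 5, Ppard was at −0.71 on the log2 scale for poly(I:C), Rxrb was at −1.53 for poly(I:C) and at −0.75 for CL075, and each call was kept. CL075 replicate 4 had 154 CPM of Ncor1, against 181 CPM in the nearest CL075 library (ratio 0.931). Without it Ncor1 had a log2 difference of 0.05 from control with CL075, and it was not called. What set these libraries apart was not tested.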

How the results depend on the processing

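For the 8 genes, 575 of 624 values over 24 results kept their direction and call, 26 values in 7 results gained a call, 23 in 5 results changed sign and none lost a call. Each of those 23 was a value not called in the reported fit. A value that changed sign was counted there even where it was called, as for Rara with poly(I:C) by totals (−0.91, called lower). The count of gained calls therefore leaves such values out. Of 1972 values over 76 results for other named genes, 1897 kept direction and call, 69 in 23 results lost the call and 6 changed sign. Those 6 also lost the call, being below the fold threshold after the change, and are not among the 69. The lost calls were those of Cd36, Fkbp4, Hsp90ab1, Lcor, Nr2c2, Tbl1xr1 and Anxa1 with CL075, of Nr1h3, Nr1d2, Ep300, Ncoa1, Plin2, Tgm2, Sgk1, Fabp4, Lcor and Tbl1x with poly(I:C), and of Anxa1, Cd36, Ep300, Plin2, Rdh11 and Tgm2 between the treatments. Leaving out 1 library moved Rxra with poly(I:C) between −3.64 and −3.53, Nr3c1 with poly(I:C) between 1.84 and 1.93 and Vdr with CL075 between −2.97 and −2.68. The cause of the changes below was not tested beyond the shift of the median that each scaling brings.

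With CL075 against control, Ppard turned to −0.0971 by upper quartiles, −0.23 by Hprt and −0.29 by totals, and ranged from −0.0287 to 0.195 when 1 library was left out, below 0 without CL075 replicate 2. Ncor1 turned to 0.0344 with DESeq2 size factors and 0.0345 with the DESeq2 test, and ranged from −0.0171 to 0.0478 when 1 library was left out. With poly(I:C) against control, Rara turned to −0.30 by upper quartiles, −0.53 by Hprt and −0.91 by totals, −0.0006 without a filter on low counts, and ranged from −0.0612 to 0.0867 when 1 library was left out. Vdr turned to −0.0208 by Hprt and −0.41 by totals, and Rara between poly(I:C) and CL075 to −0.15 by totals. By totals Nr1d2 (−0.0277), Nr1h3 (−0.32), Ep300 (−0.19), Ncoa1 (−0.14), Plin2 (−0.11) and Tgm2 (−0.10) turned with poly(I:C).

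Genes called with poly(I:C) against control moved to 1546 higher and 7664 lower by totals and to 5920 lower by Hprt. With CL075 against control they were 1208 higher and 4184 lower by totals and 1314 higher and 3814 lower by Hprt, and between the treatments 1629 higher and 5631 lower by totals. Of the 8 genes, 2 were higher with poly(I:C) by DESeq2, by its size factors and without control replicate 2 (range 1 to 2 over libraries left out). Of all genes, 3159, 3160 and 3012 were higher in those fits in that order. With poly(I:C) against control, 6 of the 8 were lower by totals and 5 by Hprt, beside 7664 and 5920 of 11804 genes tested. Between the treatments 5 were lower by totals, beside 5631 of all genes. Upper quartiles, and leaving out poly(I:C) replicate 3 or control replicate 1, gave 4 lower with poly(I:C). All genes lower there numbered 4890, 3636 and 3563 in that order. The calls gained were of Pparg, Ncor1 and, by totals, Rara. With CL075, 4 were lower by Hprt and by totals, Rara being added, beside 3814 and 4184 of all genes. With CL075, 1 was higher by DESeq2 and by its size factors (range 0 to 1 over libraries left out), beside 2243 and 2245 of all genes.

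With the replicate number as a block, poly(I:C) gave 3011 higher and 3616 lower genes against control, 2093 and 2558 with CL075 against control, and 2690 and 2812 between the treatments. The block changed no call of the 8 genes. Few reads limit the precision of Vdr, whose CL075 libraries held 4 to 12 reads each, and of Angptl4, with 8 reads over the poly(I:C) libraries and 24 over the CL075 libraries.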

Other observations

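Chaperones that hold the glucocorticoid receptor in its hormone-binding state, and an enzyme that activates its hormone, differed between the treatments. Of 7 genes tested from a list of 8, 1 was higher and 1 lower with poly(I:C) against control (list median 0.30, all genes −0.08), and 5 were higher and 1 lower with CL075 (list median 0.69, all genes −0.02). Hsp90aa1, the inducible HSP90, averaged 262 ± 14.8 CPM with poly(I:C) and 540.0 ± 19.0 CPM with CL075, against 200.2 ± 15.4 CPM in control (SD, n = 5 each). It rose by 1.43 with CL075 (SE 0.06, adjusted p = 7.1e-14 in edgeR) and had 0.39 with poly(I:C), not called. Hsp90ab1, the constitutive form, rose by 0.69 with CL075 and had 0.01 with poly(I:C), not called. Fkbp4, the immunophilin that carries the receptor to the nucleus, fell by 0.75 with poly(I:C) and 0.60 with CL075. The CL075 call of Fkbp4 was lost with DESeq2 (−0.56) and without CL075 replicate 3 (−0.56) or control replicate 4 (−0.58) or 5 (−0.58). That of Hsp90ab1 was lost by upper quartiles (0.54), Hprt (0.40) and totals (0.34). Hspa8 was called with neither treatment (0.53 with poly(I:C) and 0.35 with CL075). Between the treatments, 4 of the 7 were below CL075 in the poly(I:C) libraries and none was above (list median −0.68, all genes −0.01). Of all genes, 23.7% were called lower and 22.7% higher in that comparison.

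Among 4 other corepressors, Sin3a, the scaffold of a histone deacetylase complex, fell by 1.04 with poly(I:C) and had −0.14 with CL075, not called. Lcor, a corepressor of receptors with ligand bound, rose by 1.16 with poly(I:C) and 0.64 with CL075, the last not called by upper quartiles (0.49), Hprt (0.36) or totals (0.29), and the first not by totals (0.22). Nrip1 and Rcor1 were called with neither treatment.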
